A study of Mus musculus with 6 samples.

Results

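The genes described here are the constitutive subunits of the proteasome, taken as every gene on the array whose symbol starts with Psma, Psmb, Psmc or Psmd and a digit, apart from Psmb8, Psmb9 and Psmb10. The rule found 35 of the 25206 genes (array features) in the deposited values. Of these, 12 encode the core particle and 17 the regulatory particle, the 29 subunits proper. The other 6 only share the symbol stem or act elsewhere: Psmd5, Psmd9 and Psmd10 are chaperones that help to build the base of the regulatory particle, Psma8 and Psmb11 are core subunits known from testis and thymus, and Psmc3ip is a meiotic recombination factor and no part of the proteasome. Psmb3 and Psmb5, which belong to the core, were not analysed here.

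Macrophages were drawn into the mouse abdomen with thioglycollate broth and collected on day 4. One group of 3 samples is labelled Tet2-/-, that is, without the DNA-demethylating enzyme Tet2, and the other 3 come from wild-type littermates, all with the C57BL/6J background. Every culture received 10 ng/mL LPS, a bacterial cell-wall component, and 2 ng/mL IFNg, interferon gamma, a macrophage-activating cytokine, over 10 h, and all values below therefore come from stimulated cells. Which part of the gene the deletion removes and how old the mice were is not stated in the labels. RNA of each culture gave 1 array, with levels on the log2 scale, where 1 unit is a 2-fold difference.

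The proteasome is the barrel-shaped protease that degrades proteins tagged with ubiquitin. Its core is a stack of rings in which the alpha subunits form the gate and some of the beta subunits cut peptide bonds inside the chamber. The regulatory particle caps the core: the base holds ATPases that unfold the substrate and feed it in, and the lid removes the ubiquitin chain. In macrophages interferon gamma induces Psmb8, Psmb9 and Psmb10, which replace the constitutive cutting subunits during assembly and alter the peptides offered on MHC class I.

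Array medians lay between 3.47 and 3.66, and Pearson correlations between arrays, across genes, between 0.983 and 0.991. As a check of the labels, Tet2 itself read no lower where it should be missing (5.55, 5.25 and 5.75 against 5.40, 5.07 and 5.10 in wild type), with a log2 difference of 0.32 ± 0.16 (limma adjusted p = 0.365). Where its probes lie against the deletion is unknown, so directions rest on the labels. Macrophage markers had mean log2 levels of 9.76 to 10.15 on all arrays, with Cd68 and Adgre1 among the bright ones, whereas 5 of 7 neutrophil, 5 of 6 T and NK cell and 5 of 6 mast cell and eosinophil markers lay below every array median. B cell markers averaged 3.12 to 3.95. Markers of resident peritoneal macrophages averaged 5.97 to 6.35 in the arrays labelled Tet2-deficient and 5.32 to 5.55 in the wild-type arrays (2 of 6 rose, 0 fell), general macrophage markers had 2 of 7 that rose and 0 that fell, monocyte markers averaged 5.58 to 6.23 and 5.31 to 5.66 (0 of 4 past the threshold), and stromal markers 4.43 to 5.45 and 4.11 to 4.54 (1 of 7 rose). The part of these cell markers in the values below was not tested, and in bulk RNA fewer cells of a type cannot be told apart from less RNA per cell.

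None of the 35 genes passed the test between genotypes. Over all 25206 features, 0.952% (240) passed an adjusted p of 0.05 in the limma fit with Benjamini-Hochberg adjustment (0.647% higher and 0.305% lower), and of the 35 genes 0 did, the lowest adjusted p being 0.103 (Psmd9). At an unadjusted p under 0.05 there were 8 of 35 (background 16.0%), 7 lower in the group labelled Tet2-deficient where the background is 8.37% and 1 higher where it is 7.63%. The count of 8 became 4 without Tet2-deficient replicate 1 (background 12.9%), 5 without Tet2-deficient replicate 3 (12.2%) and 4 without wild-type replicate 3 (12.6%). In the other alternative fits it ran from 6 (arrays centred on their medians) to 11 (trended robust prior), with no background share given here. The trended robust prior also called more features at the adjusted threshold, 814 in place of 240. Without their background shares, the counts of 6 to 11 cannot be read as a result about these genes. The group ranges did not overlap for 15 genes, 12 of them lower (background 12.2%, out of 22.0% in either direction, and 14.5% among features above the median level) and 3 higher (background 9.74% and 16.6%, the latter out of 31.1%). With the replicate number as a block, 0 of the 35 passed and 0.912% of features did. No test of these shares against the background was made.

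The measured differences were small and bounded by the fit. For all 35 genes the 95% interval of the log2 change (labelled Tet2-deficient minus wild type, 3 arrays per group) lay inside -1 to 1, so none is compatible with a 2-fold change under this model, and for 24 it lay inside -0.5 to 0.5. Log2 changes ran from -0.56 (Psmd9) to 0.36 (Psmd1), with standard errors of 0.11 to 0.27 (median 0.12). The median change was -0.092 over the 35, against -0.040 over all features and -0.005 over those above the median level. Of the 35, 25 were measured lower, where 57.9% of all features were. That number was 19 after centring each array on its median, where 45.1% of all features were lower, and 28 with cyclic loess between arrays, where 50.5% were.

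**Figure D1:**
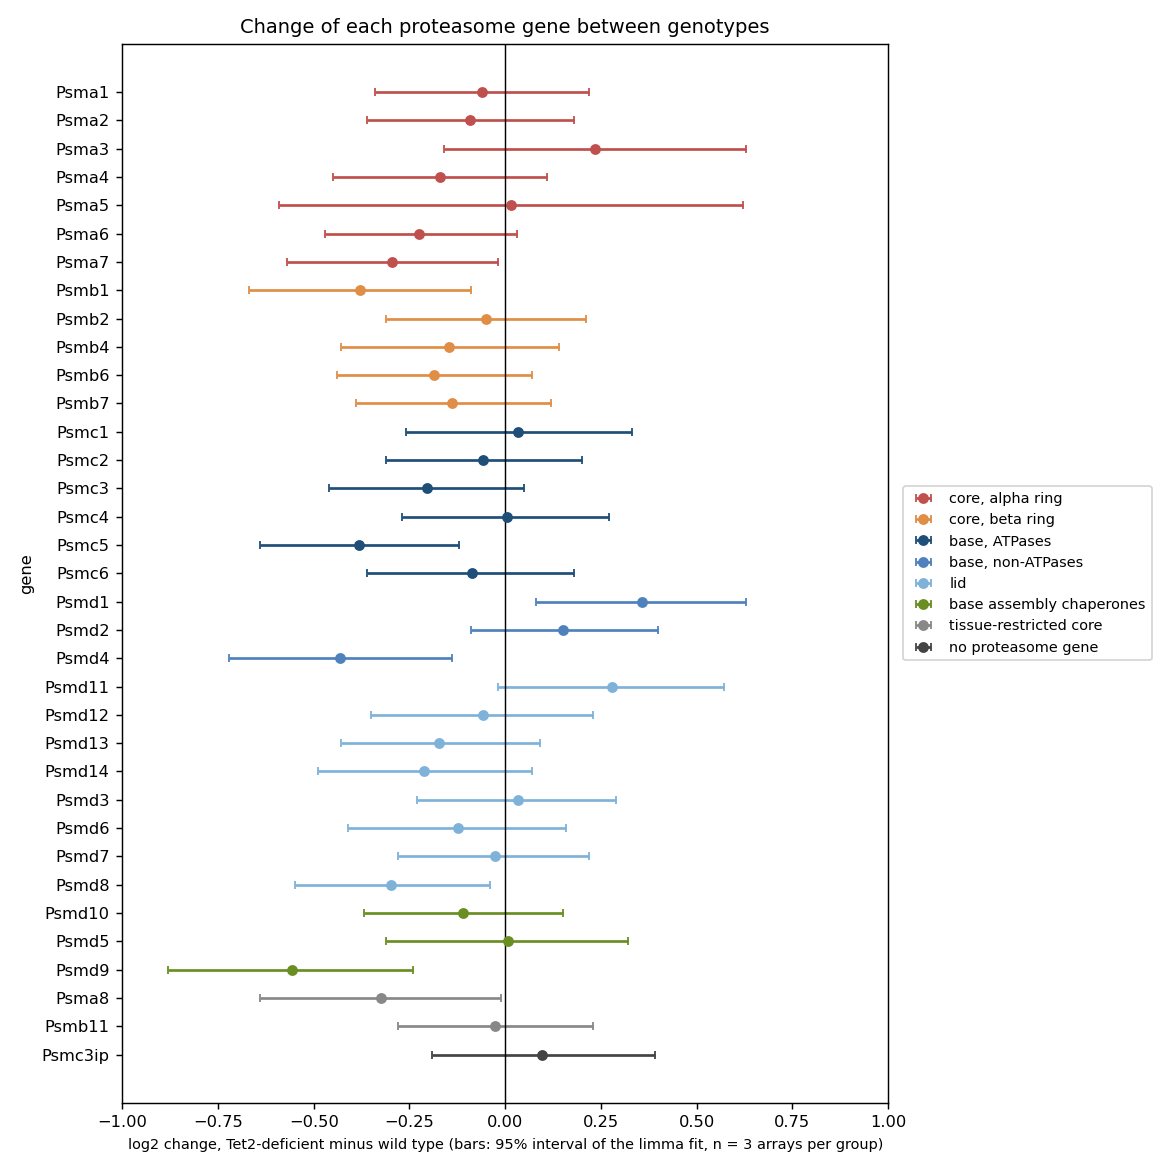
Log2 change of each of the 35 genes (x axis, labelled Tet2-deficient minus wild type; point, estimate; bar, 95% interval from limma with 3 arrays in each group), coloured by role. Every interval stays between -1 and 1; Psmd9 (-0.56) and Psmd4 (-0.43) lie farthest left and Psmd1 (0.36) farthest right.

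The stretches below lie directly before the annotated starts of 6 genes that the results turn on: Psmd9, Psmd4, Psmc5 and Psmd8, which had the lowest p among the members measured lower apart from Psmb1, Psmd1, the highest of all, and Psmb6, a cutting subunit. They are the 100 bases ending 1 base before the start, from RefSeq (GRCm38.p6), 5′ to 3′ on the gene's strand. Capitals mark TGACNNNGC, the letters of the element bound by the transcription factors Nfe2l1 and Nfe2l2, which control proteasome genes under stress, and CCAAT, on either strand.
Psmd9, chr5:123228090-123228189, plus strand: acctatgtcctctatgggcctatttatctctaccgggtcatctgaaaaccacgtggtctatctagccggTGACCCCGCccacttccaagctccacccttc
Psmd4, chr3:95042615-95042714, minus strand: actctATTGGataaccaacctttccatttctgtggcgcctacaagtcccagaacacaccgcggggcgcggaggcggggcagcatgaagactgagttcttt
Psmc5, chr11:106256085-106256184, plus strand: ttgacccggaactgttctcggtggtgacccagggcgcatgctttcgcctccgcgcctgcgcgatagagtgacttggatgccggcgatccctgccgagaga
Psmd8, chr7:29180674-29180773, minus strand: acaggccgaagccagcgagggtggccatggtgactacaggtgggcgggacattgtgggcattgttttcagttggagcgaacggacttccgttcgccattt
Psmd1, chr1:86064519-86064618, plus strand: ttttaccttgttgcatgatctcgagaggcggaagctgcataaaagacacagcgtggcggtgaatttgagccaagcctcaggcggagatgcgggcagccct
Psmb6, chr11:70525257-70525356, plus strand: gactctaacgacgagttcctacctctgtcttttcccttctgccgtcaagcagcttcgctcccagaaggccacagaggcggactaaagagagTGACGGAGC

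Over windows of 300 bases (250 before the start to 50 after it), 28 of the 35 genes had an entry. TGACNNNGC, on both strands, occurred in 4 of these 28 (14.3%): Psmb6, Psmc6, Psmd12 and Psmd9. The share over the promoters of 17491 protein-coding genes was 14.8%, so the letters were about as frequent as elsewhere. CCAAT occurred in 12 of 28 (42.9%, against 42.3%) and TATAAA in 3 of 28 (10.7%, against 14.8%). The GC box GGGCGG occurred in 18 of 28 (64.3%, against 49.2%), in 5 of 9 core and 10 of 14 regulatory particle genes with an entry. In Psmd9 a GC box on the minus strand overlaps the TGACNNNGC match. A match of letters is a description and no binding site. The 35 genes lie on 16 chromosomes in RefSeq, and no pair of them is adjacent among protein-coding genes.

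In the core particle 10 of 12 subunits were measured lower, with a median log2 change of -0.142, and 0 passed. The alpha ring, which forms the gate, had 5 of 7 lower. Psma7 had log2 levels of 9.18, 9.34 and 9.20 in the arrays labelled Tet2-deficient and 9.40, 9.55 and 9.65 in the wild-type arrays. Every mutant-labelled array was thus below every wild-type one for Psma7, with a log2 change of -0.29 ± 0.12 (standard error, n = 3 per group) and a limma adjusted p = 0.276. Psma6 stood at 8.48, 8.60 and 8.49 against 8.71, 8.76 and 8.78. Its groups did not overlap either, and the log2 change was -0.22 ± 0.11 (limma adjusted p = 0.369).

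The other alpha subunits overlapped between genotypes. Log2 changes were -0.17 for Psma4, -0.09 for Psma2 and -0.06 for Psma1. Psma3 had 1 array apart from the rest: Tet2-deficient replicate 1 read 6.71, whereas the other 5 arrays read 5.99 to 6.09, and the log2 change of 0.24 ± 0.18 was 0.02 without that array. Psma5 was dim, with levels of 2.46 to 3.63 that lay near or below the array medians, and had the widest spread of the 35 (within-group SD 0.461, against a median of 0.107). Its log2 change of 0.01 ± 0.27 therefore carries little information.

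Of the beta ring, 5 subunits were measured and all 5 were lower on the deposited scale, by 0.05 to 0.38, though Psmb2 turned to 0.02 higher after centring on array medians. Psmb1, a structural subunit without a cutting site, read 8.33, 8.61 and 8.25 in the group labelled Tet2-deficient and 8.80, 8.77 and 8.76 in wild type. The wild-type arrays lay close together and above all of the others, and the log2 change was -0.38 ± 0.13 (76.8% of the wild-type level, limma adjusted p = 0.194). The cutting subunits Psmb6, with caspase-like activity, and Psmb7, with trypsin-like activity, differed less. Psmb6 had 10.41, 10.30 and 10.34 against 10.51, 10.49 and 10.61, a log2 change of -0.19 ± 0.11 (limma adjusted p = 0.469). Psmb7 had 9.22, 9.26 and 9.15 against 9.28, 9.43 and 9.33, a log2 change of -0.14 ± 0.11 (limma adjusted p = 0.610). Neither gene's groups overlapped, although the gap for Psmb7 was only that between 9.26 and 9.28. Psmb4 had a log2 change of -0.15 with overlapping groups (-0.06 without wild-type replicate 2).

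**Figure D2:**
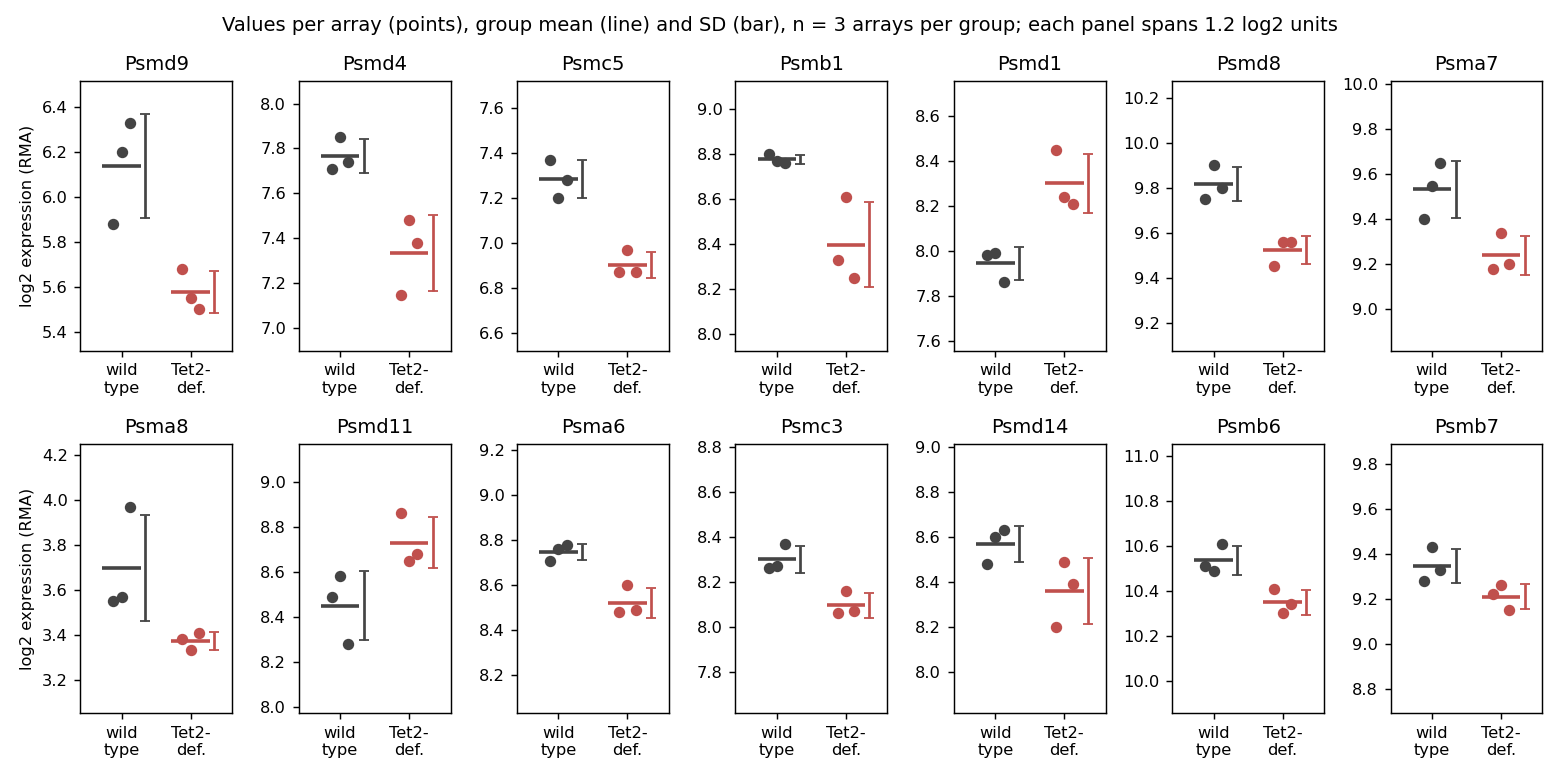
Log2 expression in every array (points) with the group mean (line) and SD (bar, n = 3 arrays per group) for the 12 genes with the lowest p and for Psmb6 and Psmb7; each panel spans the same 1.2 log2 units. The groups are apart in every panel but that of Psmd14, where 8.49 in the group labelled Tet2-deficient lies above 8.48 in wild type.

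In the regulatory particle 11 of 17 subunits were measured lower, with a median log2 change of -0.059 that became 0.007 after centring on array medians, and 0 passed. Among the 6 ATPases of the base, Psmc5 stood farthest from 0. Its levels were 6.87, 6.97 and 6.87 in the group labelled Tet2-deficient and 7.37, 7.20 and 7.28 in wild type. The groups were apart by more than their own ranges, with a log2 change of -0.38 ± 0.11, 76.7% of the wild-type level (limma adjusted p = 0.149). Psmc3 had 8.06, 8.16 and 8.07 against 8.26, 8.27 and 8.37, a log2 change of -0.20 ± 0.11 (limma adjusted p = 0.422) without overlap. The other ATPases (Psmc1, Psmc2, Psmc4 and Psmc6) had log2 changes of -0.09 to 0.03 with overlapping groups. The ATPases form a ring of 6 different subunits, so the values within that ring ranged from -0.38 to 0.03.

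The non-ATPase part of the base held the extremes in both directions among the 29 subunits found by the symbol rule. Psmd4, a receptor for ubiquitin chains, read 7.15, 7.48 and 7.38 in the group labelled Tet2-deficient and 7.71, 7.85 and 7.74 in wild type. All 3 mutant-labelled arrays were lower, and the log2 change was -0.43 ± 0.13 (74.2% of wild type, limma adjusted p = 0.146). Psmd1, a large scaffold of the base, read 8.45, 8.24 and 8.21 against 7.98, 7.99 and 7.86. Here all 3 were higher, with a log2 change of 0.36 ± 0.12 (1.28-fold, limma adjusted p = 0.194). The other scaffold, Psmd2, which binds shuttle factors that deliver ubiquitinated proteins, had the smallest spread of the 35 genes (within-group SD 0.035). Its levels were 8.90, 8.94 and 8.85 against 8.75, 8.75 and 8.73, higher in each mutant-labelled array, with a log2 change of 0.15 ± 0.11 (limma adjusted p = 0.557).

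In the lid 6 of 8 subunits were measured lower. Psmd8 read 9.45, 9.56 and 9.56 in the group labelled Tet2-deficient and 9.75, 9.90 and 9.80 in wild type. The groups were apart, with a log2 change of -0.30 ± 0.11 (limma adjusted p = 0.238). Psmd11, a scaffold subunit of the lid, read 8.86, 8.65 and 8.68 against 8.49, 8.58 and 8.28 and so lay on the other side, at 0.28 ± 0.13 (limma adjusted p = 0.340). Psmd14 is the enzyme that removes the ubiquitin chain. It had 8.20, 8.49 and 8.39 against 8.48, 8.60 and 8.63, overlapping in 1 pair of arrays, and a log2 change of -0.21 ± 0.12 (limma adjusted p = 0.457) that was -0.13 without Tet2-deficient replicate 1. Psmd13 did not overlap (7.76, 7.76 and 7.66 against 7.79, 7.93 and 7.97; log2 change -0.17). Psmd3, Psmd6, Psmd7 and Psmd12 overlapped, with log2 changes of 0.03, -0.12, -0.03 and -0.06.

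Of the 3 base chaperones, Psmd9 had the lowest p of all 35 genes. Its levels were 5.68, 5.55 and 5.50 in the group labelled Tet2-deficient and 5.88, 6.20 and 6.33 in wild type. Each mutant-labelled array was below each wild-type one, and the log2 change was -0.56 ± 0.14, or 67.9% of the wild-type level (limma adjusted p = 0.103). Psmd9 passed in 1 of 13 alternative fits, the one restricted to the brighter features, where 6.71% of features passed (limma adjusted p = 0.0468, range over the 13 fits 0.0468 to 0.295). The chaperones Psmd10 (gankyrin) and Psmd5 had log2 changes of -0.11 and 0.01 with overlapping groups.

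The remaining 3 genes were dim. Psma8 read 3.38, 3.33 and 3.41 against 3.55, 3.57 and 3.97. Its log2 change of -0.32 ± 0.14 (limma adjusted p = 0.2998) had groups that did not overlap, at levels near the array medians, and was -0.19 without wild-type replicate 3. Psmb11 stayed between 2.14 and 2.29 on all arrays, and Psmc3ip between 3.18 and 3.53.

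**Figure D3:**
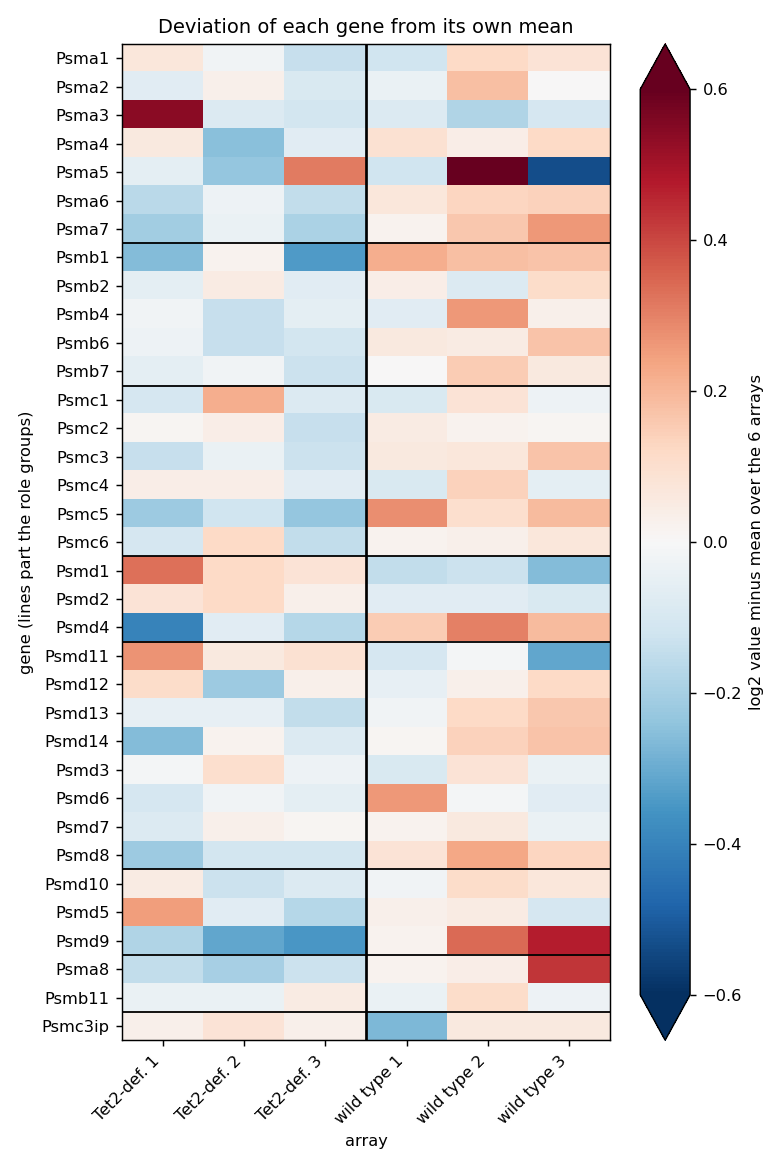
Log2 value of each gene minus its own mean over the 6 arrays (colour), with genes in rows ordered by role and arrays in columns. Psmb1, Psmc5, Psmd4, Psmd8 and Psmd9 are red (above their mean) on the wild-type side, Psmd1 and Psmd11 on the side labelled Tet2-deficient, and Psma3 and Psma5 stand out in single arrays.

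Core and regulatory particle were compared through each gene's deviation from its own mean over the arrays, since levels of different features are not on one scale. The mean deviation of the 12 core genes was -0.020, -0.071 and -0.096 in the arrays labelled Tet2-deficient, in replicate order, against 0.007, 0.137 and 0.042 in the wild-type ones. All 3 mutant-labelled arrays were below the wild-type ones, a difference of -0.124, and without the dim Psma5 it was -0.136. The 17 regulatory particle genes had -0.050, 0.014 and -0.069 against 0.017, 0.070 and 0.018. These groups did not overlap either, though the nearest arrays read 0.014 and 0.017, and the difference was -0.070. Within the core, the 5 beta subunits kept the groups apart (-0.085, -0.044 and -0.141 against 0.052, 0.112 and 0.107). The 7 alpha subunits did not, since Tet2-deficient replicate 1 (0.027) lay above wild-type replicates 1 (-0.025) and 3 (-0.004). In that array Psma3 alone stood 0.54 above its own mean, so the overlap cannot be read as a trait of the whole ring. The lid genes were at -0.044, -0.025 and -0.040 against 0.015, 0.080 and 0.014. The same mean over all features was -0.021 to -0.001 in the arrays labelled Tet2-deficient and 0.005 to 0.020 in wild type. A lack of overlap in such means was thus not particular to the proteasome genes. Over the features above the median level the groups overlapped (0.035, -0.016 and 0.003 against 0.003, -0.018 and -0.006), with a difference of 0.014.

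The core minus the regulatory particle, array by array, was 0.031, -0.085 and -0.027 in the group labelled Tet2-deficient and -0.010, 0.067 and 0.024 in wild type. These differences of means overlapped between the groups, and the genotypes differed by -0.054. The overlap came from Tet2-deficient replicate 1 alone, where the core mean includes the outlying Psma3, 0.54 above its own mean. No comparison without Psma3 is given, so the overlap does not settle whether core and regulatory particle differ. The difference of the median log2 changes, a separate measure, was -0.083 as deposited. It was -0.030 without Tet2-deficient replicate 2, -0.038 without wild-type replicate 2, and -0.028 after a trend with gene span and level was removed.

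**Figure D4:**
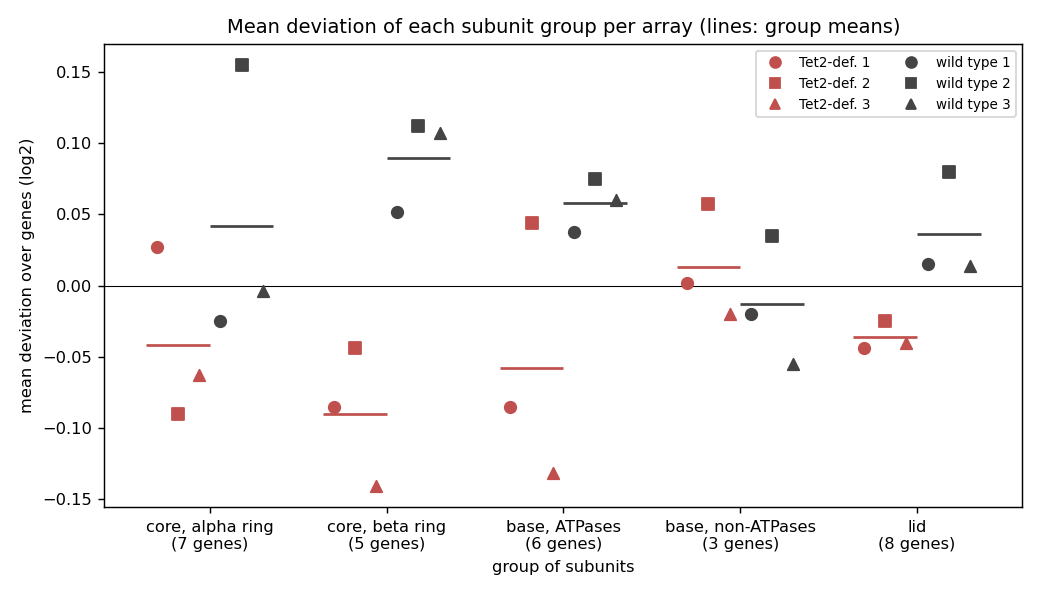
Mean deviation of the genes of 5 subunit groups from their own means (y axis, log2), 1 symbol per array, with lines at the means of the 3 arrays of each genotype. The groups are apart for the beta ring and the lid, whereas for the alpha ring, the base ATPases and the base non-ATPases, arrays of both genotypes mix. In the alpha ring, the symbol of Tet2-deficient replicate 1 includes the outlying Psma3, 0.54 above its own mean.

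Gene span ran with the changes. The RefSeq spans of the 29 subunits ran from 2535 bp (Psmb6) to 88683 bp (Psmd14). Of the 15 with spans up to the median of 13163 bp, 12 were measured lower, with a median log2 change of -0.147, and of the 14 longer ones 9 were, with a median of -0.058. Across the 29 genes, which share the arrays and are no replicates, the Spearman correlation of change with span was 0.38, and across the 11764 features above the median level with a known span it was 0.32. Psmd1 and Psmd11, the subunits with the highest changes, span 74677 and 44634 bp. With the span and level trend removed, the log2 change of Psmd1 went from 0.36 to 0.19 and that of Psmd11 from 0.28 to 0.17. The long genes that were measured lower moved away from 0, Psmd14 from -0.21 to -0.39 and Psmb7 from -0.14 to -0.26. The short Psmb6 went from -0.19 to -0.10 and Psmb4 from -0.15 to -0.05. The changes of Psmd4 (-0.42), Psmc5 (-0.35) and Psmb1 (-0.43) moved little.

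**Figure D5:**
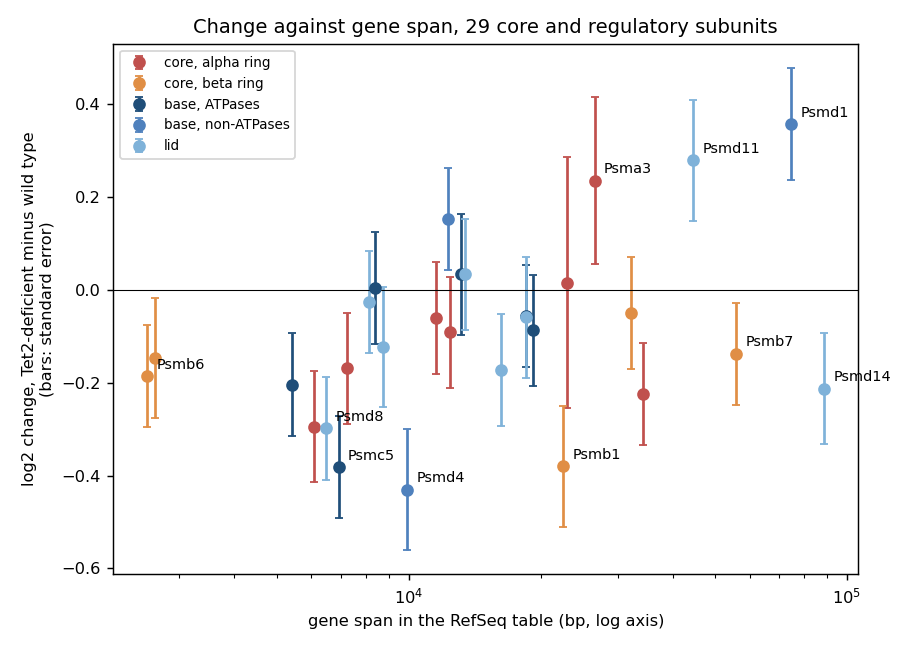
Log2 change of the 29 core and regulatory particle subunits (y axis, labelled Tet2-deficient minus wild type; bars, standard error, n = 3 arrays per group) against gene span in RefSeq (x axis, bp, log scale). Psmd1 (74677 bp) and Psmd11 (44634 bp) lie above 0, whereas Psmd14 (88683 bp) and Psmb7 (55907 bp), also long genes, lie below it.

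The interferon-induced replacements of the cutting subunits had values in the same direction. Psmb9, which replaces Psmb6, read 8.55, 8.72 and 8.59 in the group labelled Tet2-deficient and 8.85, 9.03 and 8.89 in wild type, with a log2 change of -0.30 ± 0.12 (limma adjusted p = 0.247). Psmb10, the counterpart of Psmb7, had a log2 change of -0.19 ± 0.11 (-0.11 with the span and level trend removed). Psmb8, the counterpart of Psmb5, had one of -0.19 ± 0.11. Of the 3 genes 0 passed, although none overlapped between the groups. Lower values without overlap were found for 12.2% of all features and 14.5% of those above the median level. Set side by side, the changes were -0.19 for Psmb6 and -0.30 for Psmb9, and -0.14 for Psmb7 and -0.19 for Psmb10. With the span and level trend removed, Psmb6 was at -0.10 and Psmb9 at -0.26. Psmb7 was then at -0.26 and Psmb10 at -0.11, so the order of these genes turned. The difference within these pairs was not tested.

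Other genes of the pathway included 1 that passed. Among 5 genes for other caps and inhibitors of the core, Psme2, a subunit of the interferon-induced activator ring, fell: 5.84, 6.15 and 5.99 in the group labelled Tet2-deficient against 6.67, 6.70 and 6.74 in wild type. The groups were far apart, with a log2 change of -0.71 ± 0.12, 61.3% of wild type (limma adjusted p = 0.0370). That call was lost in 8 of 13 alternative fits, among them all 6 that leave out 1 array (0.0522 to 0.155). Its partner in the ring, Psme1, had 10.76, 10.65 and 10.59 against 10.69, 10.81 and 10.71, with a log2 change of -0.07 ± 0.11. The other 3, the caps Psme3 and Psme4 and the inhibitor Psmf1, had log2 changes of 0.08 to 0.13 and overlapped.

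Of 5 measured chaperones that assemble the core, 0 passed and 4 were measured lower, with a median log2 change of -0.247. The maturation factor Pomp had -0.25 ± 0.12 (limma adjusted p = 0.366; -0.16 without Tet2-deficient replicate 3), and Psmg1 and Psmg3, which help to place alpha and other subunits, had -0.45 and -0.34. Of 7 proteasome-bound factors 0 passed. Sem1, the smallest lid subunit, is left out of the lid counts above because of its symbol. It had 9.15, 9.49 and 9.42 against 9.81, 9.75 and 9.82, a log2 change of -0.44 ± 0.13 (limma adjusted p = 0.135). The ubiquitin ligase Ube3c (0.67 ± 0.15, limma adjusted p = 0.0707) and the stress-induced Zfand2a (0.62 ± 0.14, limma adjusted p = 0.0820) lay on the other side. In the limma fit to the brighter features, where 6.71% of features passed, Ube3c (adjusted p = 0.0318) and Zfand2a (0.0367) did. With a trended robust prior in limma, 814 features passed in place of 240. They included Ube3c (adjusted p = 0.0327), Zfand2a (0.0259) and Sem1 (0.0372). With the span and level trend removed the change of Ube3c was 0.44.

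Factors upstream of the proteasome were measured higher more often than lower, and 0 passed in the fit to the deposited values. Nfe2l2, the oxidative stress factor, read 9.46, 9.31 and 9.42 in the group labelled Tet2-deficient and 9.13, 8.99 and 8.90 in wild type, a log2 change of 0.39 ± 0.12 (limma adjusted p = 0.153). Nfe2l1, which raises proteasome genes when degradation fails, had 0.23 ± 0.13 (limma adjusted p = 0.455), or 0.11 without wild-type replicate 3, and Ngly1, which processes Nfe2l1, had 0.30 ± 0.15. Of 7 shuttle factors and components of the p97 unfolding complex, 6 were higher, with a median log2 change of 0.317. They included Nploc4 (0.59 ± 0.13, limma adjusted p = 0.0715), Ubqln2 (0.36 ± 0.12) and Ubqln1 (0.32 ± 0.12). In alternative limma fits Nploc4 passed among the brighter features (adjusted p = 0.0320), with a trended robust prior (0.0202) and with array weights (0.0477), and Nfe2l2 passed with the trended robust prior (0.0433). The main fit called 240 features. The trended robust prior called 814, array weights 498 and the fit to brighter features 6.71% of those tested. The ubiquitin-activating enzyme Uba6 had 0.41 ± 0.15 (limma adjusted p = 0.217), and 0.27 without Tet2-deficient replicate 1. With the span and level trend removed Uba6 was at 0.22, Ngly1 at 0.13 and Ubqln1 at 0.21, and Ngly1 was at 0.18 without wild-type replicate 2. The other 5 genes listed with Uba6, for ubiquitin and its activating enzymes, were not analysed here.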

How the data were processed

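The deposited values are log2 expression, made by the authors with RMA (background correction, normalization between arrays, summary over probes) in affy 1.36.1, per the submitters' processing notes. The array type, probe set definition and genome build are not stated in the labels. RMA brings the arrays onto a common distribution, which hides any shift shared by every gene, and low levels understate differences. Arrays have no read depth, and 3 per group limit the precision. No pair of arrays was identical (at least 99.66% of features differed).

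Symbols came from the platform annotation (23185 of 25206 features, 1 symbol each). All 35 members matched RefSeq. Genotypes were compared by limma (version 3.58.1, R version 4.3.3; linear model per feature, moderated variance), fitted to the whole table, two-sided, Benjamini-Hochberg adjusted, threshold 0.05. The labels call the samples biological replicates. On simulated data over 25206 features the fit called 75% of changes of 1 and 95% of changes of 2 on the log2 scale. Smaller changes, such as those measured for the members (-0.56 to 0.36), were not simulated, so these shares do not apply to them. An exact permutation test of 3 against 3 cannot go below 0.1, so none was used. Alternatives were median centring, cyclic loess, brighter features, a replicate block, a trended robust prior, array weights, each array left out and, added after the data were seen, removal of a gene-span and level trend (loess span 0.3).

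The members and lists were chosen with earlier results of these data known, so no p over a list is given. Values per array are given for the 12 members with the lowest p (fewer than 6 passed), Psmb6 and Psmb7. Other pathway genes named are the 3 interferon-induced subunits, Pomp, Psme1, Psme2, Nfe2l1, Nfe2l2 and up to 3 more per list by p. Psmd2, Psmd13, Psma3 and Psma5 were given array values, and Psme3, Psme4 and Psmf1 named, after their values were seen.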

Additional observations from a re-analysis of the deposited data

How the results depend on the processing

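Of 35 members, 0 passed in the main fit and in 12 of 13 alternatives, and 1 (Psmd9) passed among the brighter features. The count at an unadjusted p under 0.05 was 8 (background 16.0%), and 4 to 8 with 1 array left out. Where it was 4 or 5, the background was 12.2% to 12.9%. In the other alternatives it was 6 (median centring) to 11 (trended robust prior), without a background share, so those counts are no result about the members. The core median of -0.142 moved to -0.076 with median centring (-0.169 to -0.099 with 1 array left out), and the regulatory particle median of -0.059 to 0.007 with median centring and -0.119 with cyclic loess (-0.092 to -0.038 with 1 array left out). Their difference of -0.083 was -0.122 to -0.030 with 1 array left out and -0.028 without the gene-span and level trend.

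With median centring the log2 change turned its sign to 0.04 (Psmd7), 0.01 (Psmc2), 0.01 (Psma1), 0.02 (Psmb2), 0.01 (Psmd12), 0.04 (Psmb11), 0.01 (Txnl1). With cyclic loess the log2 change turned its sign to -0.03 (Psmc1), -0.03 (Psmd3), -0.05 (Psmc4), -0.06 (Psmd5), 0.04 (Psmb11), -0.05 (Ufd1), -0.03 (Usp14). With array weights the log2 change turned its sign to -0.01 (Psmc4), -0.03 (Psmd5). With the span and level trend removed the log2 change turned its sign to -0.03 (Psmd5), 0.04 (Psmb11), -0.09 (Psme4), -0.05 (Ufd1), -0.01 (Psmf1), -0.08 (Usp14). With 1 array left out the log2 changes that turned ran from -0.05 to 0.01 (Psmd7), -0.07 to 0.09 (Psmc1), -0.01 to 0.15 (Psmc3ip), -0.01 to 0.08 (Psmd3), -0.04 to 0.08 (Psmc4), -0.25 to 0.33 (Psma5), -0.13 to 0.04 (Psmd12), -0.12 to 0.09 (Psmd5), -0.06 to 0.02 (Psmb11), -0.05 to 0.04 (Ufd1), -0.01 to 0.07 (Usp14). None of these genes passed in any fit. The cause of these shifts was not tested. The replicate numbers carry no stated pairing, and correlations of same-numbered deviations were 0.084, 0.191 and 0.025. With the replicate block 0 members passed and 8 had an unadjusted p under 0.05, with no background share given for the latter. In that limma fit 230 features passed in place of 240, while Psme2 lost its call (adjusted p = 0.0540). In that pairing not every array correlated best with its own number. Of 403 alternative fits of other pathway genes, 9 gained a call and 8, all of Psme2, lost it. The number of arrays limits all values, and the standard error was widest for Psma5 (0.27) and Psma3 (0.18).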
